A study of Mus musculus with 11 samples.

Results

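Metallothioneins are small cysteine-rich proteins that hold zinc and copper, and 6 genes of this system were followed in embryonic mouse hearts with and without Pde2A, out of 55487 gene identifiers in the counts. They are the metallothionein genes Mt1, Mt2 and Mt3, the zinc-sensing transcription factor gene Mtf1, the zinc exporter gene Slc30a1 and the zinc importer gene Slc39a14. The set was chosen by the weight of Mt2 on the first principal component of these same hearts, which was among the largest, and the other members were added as its family and its regulators. Each library came from 1 whole heart taken at E14.5, from 5 knockout (Pde2A-/-) or 6 wild-type (Pde2A+/+) embryos. The embryos carried or lacked the B6; 129P2-Pde2A<tm1Dgen> allele, a constitutive mutation that is not limited to the heart, and came from matings of heterozygous mice without treatment. The sex and litter of single hearts were not stated. All 6 members passed the filter of at least 10 counts over the 11 hearts, as did 24177 genes in all.

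Pde2A degrades the second messengers cAMP and cGMP. Metallothionein genes are classical targets of MTF-1, the product of Mtf1, which binds short metal response elements (MREs) near their starts when free zinc rises, and they also respond to glucocorticoids, to cytokines that act through STAT3, to low oxygen and to oxidants. Slc30a1 encodes ZnT1, which carries zinc out of the cell and is itself a classical MTF-1 target, and Slc39a14 encodes ZIP14, which takes up zinc, iron and manganese and is known in liver as an acute phase gene.

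The hearts had 35865537 to 42835382 reads assigned to genes on the sense strand. Pde2a itself (ENSMUSG00000110195) had 0 to 2 counts per library and 7 counts over all 11 libraries, Pde2A+/+ hearts included. It could therefore not check the genotype labels. Whether its transcripts were missed in these counts was not tested, and they do not show that Pde2A+/+ hearts lack it. The labelled tissue was checked by its markers: all 10 cardiomyocyte genes listed, such as Tnnt2 and Myh6, were detected, with summed levels of 34423 to 46842 CPM in Pde2A+/+ and 35279 to 41481 CPM in Pde2A-/- hearts. By edgeR 2 of the 10 were lower in Pde2A-/- hearts and 0 higher, where 5.67% of all genes were lower. These were Ttn at a log2 fold change of -0.51 (adjusted p = 0.0119) and Tnni1 at -0.41 (adjusted p = 0.0127). DESeq2 also called Tnnt2 and Myl2 lower. CPM here are counts scaled per 1e+06 of library size after TMM normalization. Levels of other cells differed between the hearts too. Of 10 erythroid markers 9 were higher in the knockout group (edgeR's quasi-likelihood test), where 8.93% of all genes were higher. The median log2 fold change of the 10 was 3.21. Their summed level ranged from 525 to 1059 CPM against 125 to 520 CPM. That sum includes Alas2, the marker not called, with a mean of 124 CPM in Pde2A-/- and 189 CPM in Pde2A+/+ hearts. The sum thus shows a smaller difference than the median of the list. Of 10 macrophage markers 9 were higher, again beside 8.93% of all genes, with summed levels of 237 to 315 CPM against 119 to 189 CPM. Of 9 hepatocyte markers edgeR called 0, where 8.93% of all genes were called higher and 5.67% lower. By edgeR 2 of the 9 had an unadjusted p under 0.05, and DESeq2 called 0. Their sum reached 45.3 CPM in Pde2A-/- replicate D and 123 CPM in Pde2A+/+ replicate E. It was under 8 CPM in 7 of the 11 hearts. In bulk hearts, more cells of a type and more RNA per cell cannot be told apart, and the part of these cells in the values that follow was not tested except where a value without them is given.

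The 3 metallothionein members lie in 1 cluster on chromosome 8, on the plus strand, in the order Mt3, Mt2, Mt1 (GRCm38, GENCODE M21 annotation). Mt3 (ENSMUSG00000031760) spans chr8:94152607-94154146, Mt2 (ENSMUSG00000031762) chr8:94172664-94173568 and Mt1 (ENSMUSG00000031765) chr8:94179082-94180327. Mtf1 (ENSMUSG00000028890) lies on chr4:124802104-124849800, Slc30a1 (ENSMUSG00000037434) on chr1:191906767-191913247, both on the plus strand, and Slc39a14 (ENSMUSG00000022094) on chr14:70303469-70351425 on the minus strand. RefSeq promoters on GRCm38.p6 were at hand for 5 of the 6 members, and Slc39a14 had no entry. Each promoter was searched, from 250 bases before to 50 after the annotated start, for the core of the MRE, spelled TGCACNC or TGCGCNC, on both strands. Mt2 held 4 cores, Mt1 3, Slc30a1 2, Mt3 1 and Mtf1 0. At least 1 core was present in 25.7% of all 32851 promoters of the same length, at least 3 in 1.97% and at least 4 in 0.518%. The promoters of Mt1 and Mt2 are shown because these genes carry the difference between the genotypes, and those of Mt3 and Slc30a1 because they are the neighbour in the cluster and the exporter that did not pass the test. Capitals mark the MRE cores on either strand, and each run holds the bases before the start, 5′ to 3′.
Mt2, chr8:94172368-94172617, plus strand: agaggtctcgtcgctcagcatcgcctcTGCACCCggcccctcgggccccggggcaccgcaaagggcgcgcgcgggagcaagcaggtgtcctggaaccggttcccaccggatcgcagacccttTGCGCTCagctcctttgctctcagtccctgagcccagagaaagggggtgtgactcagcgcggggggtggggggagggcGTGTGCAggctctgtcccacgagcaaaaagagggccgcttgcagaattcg
Mt1, chr8:94178839-94179088, plus strand: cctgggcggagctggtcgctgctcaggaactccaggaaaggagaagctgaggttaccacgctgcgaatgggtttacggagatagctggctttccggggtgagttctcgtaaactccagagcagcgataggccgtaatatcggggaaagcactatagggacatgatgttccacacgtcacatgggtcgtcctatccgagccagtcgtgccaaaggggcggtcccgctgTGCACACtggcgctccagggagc
Mt3, chr8:94152357-94152606, plus strand: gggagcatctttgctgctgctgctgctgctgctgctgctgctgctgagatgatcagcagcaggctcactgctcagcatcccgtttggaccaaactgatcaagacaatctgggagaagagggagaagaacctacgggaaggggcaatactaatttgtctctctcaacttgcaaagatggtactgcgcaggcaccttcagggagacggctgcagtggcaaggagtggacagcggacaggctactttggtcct
Slc30a1, chr1:191906531-191906780, plus strand: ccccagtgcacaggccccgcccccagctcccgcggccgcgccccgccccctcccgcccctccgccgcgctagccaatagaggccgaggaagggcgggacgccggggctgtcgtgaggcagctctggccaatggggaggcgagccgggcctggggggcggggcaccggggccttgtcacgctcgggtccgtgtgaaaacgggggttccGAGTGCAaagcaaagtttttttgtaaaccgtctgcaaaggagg
The remaining cores of Mt1 and Mt2 that lie past the start fall in its first 30 bases, which read as follows.
Mt2, chr8:94172618-94172647: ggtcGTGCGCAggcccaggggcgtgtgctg
Mt1, chr8:94179089-94179118: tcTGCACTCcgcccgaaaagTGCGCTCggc
Counted from the annotated RefSeq start, the cores of Mt2 began at -223, -128, -50 and 5 and those of Mt1 at -23, 3 and 21. The GENCODE starts given above, 94172664 for Mt2 and 94179082 for Mt1, differ from these RefSeq starts. Which start these hearts used was not tested. The positions and numbers of cores hold for this annotated start, and cores outside the window were not counted. A match is a description of letters in this window, and no binding was measured.

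Mt2, which encodes one of the 2 widely expressed metallothioneins, was higher in every Pde2A-/- heart than in any Pde2A+/+ heart. The 5 Pde2A-/- hearts had 24.1 CPM in replicate A, 49.8 in B, 89.4 in 14, 138 in D and 177 in 15. In the 6 Pde2A+/+ hearts the lowest level was 5.32, the median 9.31 and the highest 11.6 CPM. The levels were thus narrow in the Pde2A+/+ hearts and spread widely among the Pde2A-/- hearts, where replicate A was nearest to the wild type. The means were 95.8 ± 62.8 CPM (SD, n = 5) and 8.76 ± 2.33 CPM (SD, n = 6), a ratio of 10.9, and the log2 fold change was 3.45 ± 0.42 (SE). Mt2 ranked 4 of the 500 genes by its weight on the first principal component, which held 51.5% of their variance, so that these values describe the choice of the gene and were given no test. Leaving out each heart in turn gave log2 fold changes of 3.11 to 3.70.

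Mt1, the other widely expressed metallothionein, followed the same hearts at a smaller fold. Its levels were 47.2 CPM in Pde2A-/- replicate A, 78.5 in B, 132 in 14, 173 in D and 224 in 15. The Pde2A+/+ hearts ran from 29.1 through a median of 34.5 to 42.9 CPM. Replicate A thus exceeded the highest Pde2A+/+ heart by a small margin, and the groups did not overlap. The means were 131 ± 70.9 CPM (SD, n = 5) against 35.1 ± 5.37 CPM (SD, n = 6), a ratio of 3.73, with a log2 fold change of 1.90 ± 0.30 (SE) that was not tested either, since Mt1 ranked 31 by its weight among the same 500 genes. Of the 6 members, Mt1 and Mt2 were the 2 with every Pde2A-/- heart above every Pde2A+/+ heart, a pattern held by 5.38% of all genes tested; the choice of the set by Mt2 fixed part of that count.

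**Figure D1:**
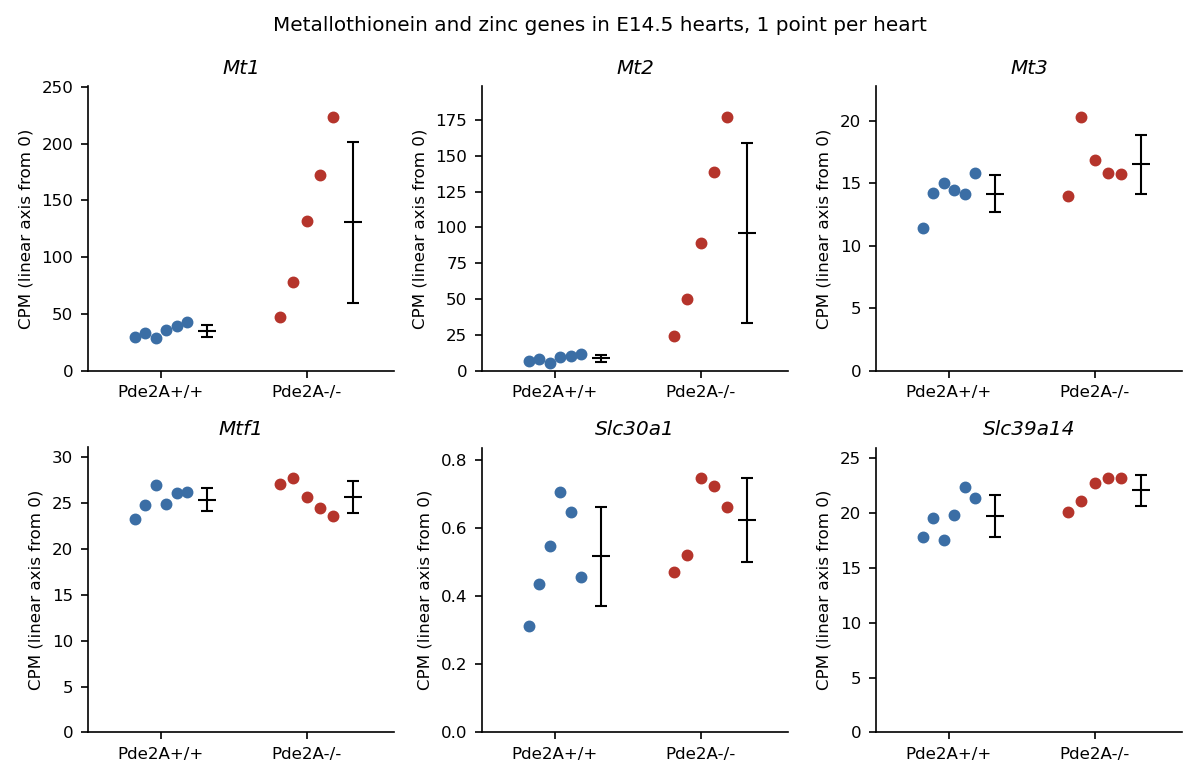
Level of each member in CPM, 1 point per heart, Pde2A+/+ in blue (n = 6) and Pde2A-/- in red (n = 5), with the mean and SD in black and a linear axis from 0 in each panel. Mt1 and Mt2 were separated between the genotypes with a wide spread among Pde2A-/- hearts, from 47.2 to 224 CPM for Mt1 and from 24.1 to 177 CPM for Mt2, while the groups overlapped for Mt3, Mtf1, Slc30a1 and Slc39a14.

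The 2 genes kept 1 order of hearts but not 1 ratio. Ranked by Mt1 or by Mt2, all 11 hearts took the same places. Mt2 gave 33.8% of the summed Mt1 and Mt2 counts in Pde2A-/- replicate A, 38.8% in B, 40.5% in 14, 44.5% in D and 44.2% in 15. In Pde2A+/+ hearts its share was 15.5% at the lowest, 20.6% at the median and 21.8% at the highest. The shares did not overlap between the genotypes, with means of 40.4 ± 4.41% (SD, n = 5) and 19.7 ± 2.36% (SD, n = 6). Within the Pde2A+/+ hearts too, the heart with the least Mt1, replicate 6, had the lowest Mt2 share.

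**Figure D2:**
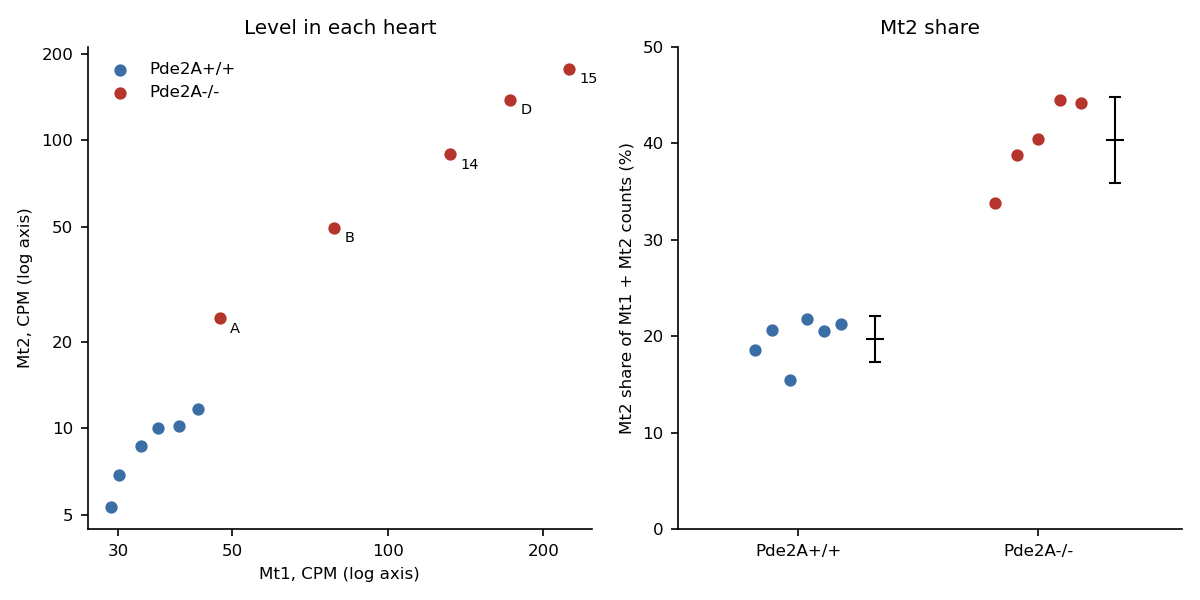
Left, Mt2 against Mt1 in CPM on log axes, 1 point per heart, with the names of the Pde2A-/- hearts; right, the share of Mt2 in the summed counts of Mt1 and Mt2 in percent, with the mean and SD in black. The hearts lie along 1 rising line, and the share was 33.8% to 44.5% in Pde2A-/- (red, n = 5) and 15.5% to 21.8% in Pde2A+/+ hearts (blue, n = 6).

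Mt3, best known as the metallothionein of neurons, lies 20.1 kb before Mt2 and did not pass the test. It had 13.99 CPM in Pde2A-/- replicate A, 20.3 in B, 16.8 in 14, 15.8 in D and 15.7 in 15. The Pde2A+/+ hearts ran from 11.4 through 14.3 to 15.8 CPM. The groups overlapped, 2 Pde2A-/- hearts (B and 14) were above all Pde2A+/+ hearts, and the highest was replicate B rather than the Mt2-rich replicate 15. The log2 fold change was 0.22 ± 0.10 (SE; edgeR's quasi-likelihood test, adjusted p = 0.151), with an interval of 1.96 SE from 0.03 to 0.42. Mt4, the 4th gene of the cluster, had 0 counts in all libraries. Of the genes that flank the cluster, Bbs2 had a log2 fold change of 0.12 ± 0.08 (SE; edgeR, adjusted p = 0.328). Nup93, which encodes a nuclear pore protein, fell by 0.34 ± 0.09 (SE) on the log2 scale (edgeR, adjusted p = 0.0275), a call that ended without Pde2A-/- replicate 14, D or 15 or without Pde2A+/+ replicate 6 or 8 (adjusted p up to 0.0742).

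**Figure D3:**
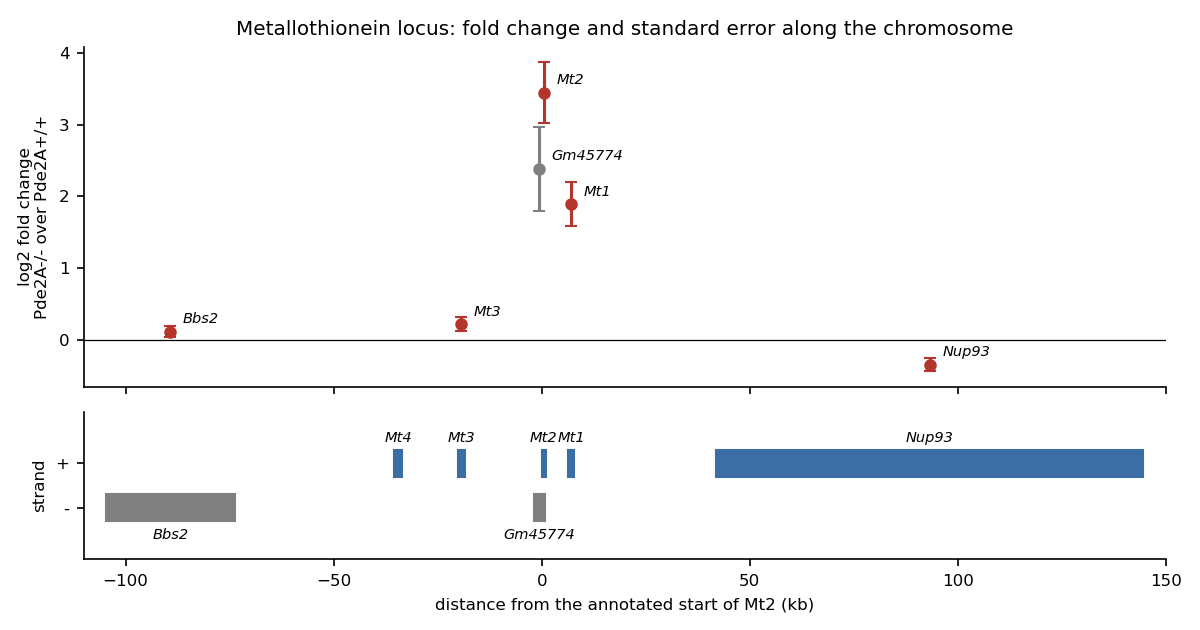
Log2 fold change with its standard error for the tested genes of the metallothionein cluster (top) against the distance in kb from the annotated start of Mt2, and their extents by strand (bottom). The difference of 3.45 at Mt2 and 1.90 at Mt1 stood between 0.22 at Mt3 and -0.34 at Nup93; the grey point is the antisense gene Gm45774, and Mt4 had no counts.

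The annotation places an antisense gene, Gm45774 (ENSMUSG00000110588), at chr8:94170748-94173412 on the minus strand. It lies over 73.5% of the exon bases of Mt2. Reads on the plus strand could be given to Mt2 alone only because the libraries mark strand. Of Mt2 counts and counts on its opposite strand, the opposite strand gave 0.928% in Pde2A-/- and 1.16% in Pde2A+/+ hearts, against 4.51% and 4.41% over all genes. Gm45774 had 194 counts in the Pde2A-/- and 45 in the Pde2A+/+ hearts, beside 11163 and 1336 reads on the opposite strand of it, and whether these 194 and 45 are its own transcripts or reads of Mt2 given to the wrong strand cannot be told apart. The log2 fold change of Mt2 without regard to strand was 3.59.

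Mtf1 RNA showed almost no difference between the genotypes. Its levels were 27.1 CPM in Pde2A-/- replicate A, 27.7 in B, 25.7 in 14, 24.4 in D and 23.6 in 15, and those of the Pde2A+/+ hearts ran from 23.3 through 25.5 to 26.9 CPM. The Pde2A-/- hearts with the most Mt2, D and 15, had the least Mtf1 of their group. The log2 fold change was 0.02 ± 0.06 (SE; edgeR, adjusted p = 0.875), and the interval of 1.96 SE reached from -0.09 to 0.13. The protein-coding gene 1110065P20Rik overlaps 8.10% of the exon bases of Mtf1 on the other strand and fell by 0.41 ± 0.11 (SE) on the log2 scale (edgeR, adjusted p = 0.0224), a call lost without Pde2A-/- replicate 14 or 15 or Pde2A+/+ replicate 6 (adjusted p up to 0.0548).

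Slc30a1, the exporter gene, was scarce. It had 18, 22, 30, 26 and 24 counts in Pde2A-/- replicates A, B, 14, D and 15 and 12 to 27 counts in the Pde2A+/+ hearts. In CPM that was 0.470, 0.519, 0.747, 0.722 and 0.661 in the same Pde2A-/- hearts, against 0.313, 0.502 and 0.705 as the lowest, median and highest Pde2A+/+ level. The groups overlapped widely, and the log2 fold change of 0.27 ± 0.23 (SE) did not pass (edgeR, adjusted p = 0.479). Its interval of 1.96 SE, -0.18 to 0.72, is the widest of the 4 members tested and shows what these few counts could not resolve.

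Slc39a14, the importer gene, had 20.1 CPM in Pde2A-/- replicate A, 21.1 in B, 22.7 in 14, 23.2 in D and 23.2 in 15. The Pde2A+/+ hearts ran from 17.6 through 19.7 to 22.3 CPM. Replicates 14, D and 15 were above every Pde2A+/+ heart and A and B were within their range. The log2 fold change was 0.16 ± 0.07 (SE; edgeR, adjusted p = 0.155). Among hearts whose replicate name is a number it was 0.29 (adjusted p = 0.0376), and among those named by a letter -0.03 (adjusted p = 0.932).

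Of the 4 members tested, Mt3, Mtf1, Slc30a1 and Slc39a14, edgeR called 0, where 8.93% of all genes were called higher and 5.67% lower in Pde2A-/- hearts at an adjusted p under 0.05. Mt3 and Slc39a14 had an unadjusted p under 0.05, and DESeq2 called 0 of the 4. Their median log2 fold change was 0.19, and that of all genes tested was -0.02.

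Levels of different genes were set side by side per kb of the first listed transcript of each gene (549 bases for Mt1, 511 for Mt2 and 536 for Mt3). In Pde2A+/+ hearts Mt1 led with 63.9 ± 9.78 CPM per kb, followed by Mt3 with 26.4 ± 2.79, Mt2 with 17.1 ± 4.55, Slc39a14 with 9.42 ± 0.901, Mtf1 with 3.33 ± 0.169 and Slc30a1 with 0.0986 ± 0.0277 (SD, n = 6). The ranges of Mt3 and Mt2 overlapped, as did those of Mt2 and Slc39a14, although Mt3 was above Mt2 within each of the 6 hearts. In Pde2A-/- hearts Mt1 had 238 ± 129 CPM per kb, Mt2 187 ± 123 and Mt3 30.8 ± 4.39 (SD, n = 5). Mt2 thus stood above Mt3 in all 5 Pde2A-/- hearts, with no overlap, and below Mt1 in all 5, with overlapping ranges.

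Among the 8 other ZnT exporters tested, 1 rose. Slc30a10, known mainly as a manganese exporter, had 4.33 CPM in Pde2A-/- replicate A, 8.38 in B, 7.47 in 14, 7.38 in D and 8.79 in 15. Its Pde2A+/+ levels ran from 0.105 through 0.408 to 0.788 CPM. The groups did not overlap, and replicate A was again the lowest of its group, with a log2 fold change of 4.17 ± 0.36 (SE; edgeR, adjusted p = 1.1e-05). At least 2-fold higher calls made up 2.21% of all genes. Slc30a10 also differed from Mt2 in its order of Pde2A-/- hearts, in which replicate B came second to 15. Its promoter held 3 MRE cores. That of Slc30a4 held 3 as well, and Slc30a4 did not pass at a log2 fold change of -0.14 (edgeR, adjusted p = 0.401). The other 7, among them the vesicular transporters Slc30a5 and Slc30a7, did not pass by edgeR, while DESeq2 also called Slc30a9 higher, at 0.17 on the log2 scale (adjusted p = 0.0192). The median over the 8 was 0.02, and Slc30a8 had too few counts to be tested.

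Of 13 other ZIP importers edgeR called 1 higher and 0 lower, against 8.93% and 5.67% of all genes. Their median log2 fold change was -0.07. DESeq2 also called 2 lower, Slc39a9 at -0.19 (adjusted p = 0.0198) and Slc39a11 at -0.24 (adjusted p = 0.0301). Slc39a8, whose product takes up zinc and manganese, had 35.8 CPM in Pde2A-/- replicate A, 38.4 in B, 50.8 in 14, 46.3 in D and 53.8 in 15, against 22.4, 30.2 and 39.4 as the lowest, median and highest Pde2A+/+ level. Replicates A and B lay within the Pde2A+/+ range. The log2 fold change was 0.56 ± 0.14 (SE; edgeR, adjusted p = 0.0204), and the call ended without Pde2A-/- replicate 14, D or 15 (adjusted p up to 0.0598). Slc39a7, a zinc channel of the endoplasmic reticulum, had 3.60 ± 0.634 against 4.33 ± 0.716 CPM and a log2 fold change of -0.26 ± 0.15 (SE; edgeR, adjusted p = 0.242).

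Of 6 further genes known to respond to MTF-1 or to metals, 4 rose and 0 fell, against 8.93% and 5.67% of all genes. Their median log2 fold change was 0.58. Ndrg1, a gene also induced by low oxygen, had 37.8 CPM in Pde2A-/- replicate A, 60.1 in B, 167 in 14, 268 in D and 322 in 15. Its Pde2A+/+ levels ran from 23.0 through 34.8 to 44.6 CPM. Replicate A was inside the Pde2A+/+ range and the other 4 hearts were above it in the order of Mt2, and the log2 fold change was 2.31 ± 0.45 (SE; edgeR, adjusted p = 0.00618). Without the 4 hearts that held at least 1 CPM of the hepatocyte transcript Alb (Pde2A-/- D and Pde2A+/+ 11, H and E) it was about as large, at 2.44, and did not pass with the 7 hearts left (adjusted p = 0.111). Smaller rises passed for Slc40a1, the iron exporter ferroportin, with 0.65 ± 0.10 (SE; edgeR, adjusted p = 0.00139), for Gclc, an enzyme of glutathione synthesis, with 0.54 ± 0.07 (adjusted p = 0.000343), and for the growth factor gene Pgf with 0.62 ± 0.18 (adjusted p = 0.0353). The call of Pgf ended without any 1 of Pde2A-/- replicates 14, D and 15 or Pde2A+/+ replicates 7, 11, 6, 8 and E (adjusted p up to 0.102). Csrp1 and Selenow did not pass, with log2 fold changes of 0.06 and -0.01.

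Metallothioneins also bind copper, and of 12 genes of copper handling 4 rose and 1 fell, against 8.93% and 5.67% of all genes. Their median log2 fold change was 0.08. Cp, which encodes the copper ferroxidase ceruloplasmin, had 3.60 CPM in Pde2A-/- replicate A, 6.82 in B, 5.62 in 14, 5.72 in D and 7.99 in 15, all above the Pde2A+/+ hearts at 1.58, 1.84 and 2.93 (lowest, median, highest). Its log2 fold change was 1.59 ± 0.21 (SE; edgeR, adjusted p = 0.000326). Atp7b, a copper-exporting ATPase, had 7.52 CPM in Pde2A-/- replicate A, 10.1 in B, 22.2 in 14, 19.2 in D and 30.5 in 15, and its Pde2A+/+ levels of 6.27, 7.11 and 12.6 CPM overlapped with A and B. Its log2 fold change of 1.18 ± 0.31 (SE; edgeR, adjusted p = 0.0251) lost the call without any 1 of Pde2A-/- replicates 14, D and 15 or Pde2A+/+ replicates 6, 8, H and E (adjusted p up to 0.0746). Atp7a, its relative, rose by 0.47 ± 0.07 (SE; edgeR, adjusted p = 0.00128) and the copper importer Slc31a1 by 0.18 ± 0.04 (adjusted p = 0.0165). Sco1, a copper chaperone of cytochrome c oxidase, fell by 0.35 ± 0.11 (SE) on the log2 scale (edgeR, adjusted p = 0.0425), a call that 7 of the 11 hearts could end when left out: Pde2A-/- 14, D and 15 and Pde2A+/+ 6, 8, H and E (adjusted p up to 0.107).

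**Figure D4:**
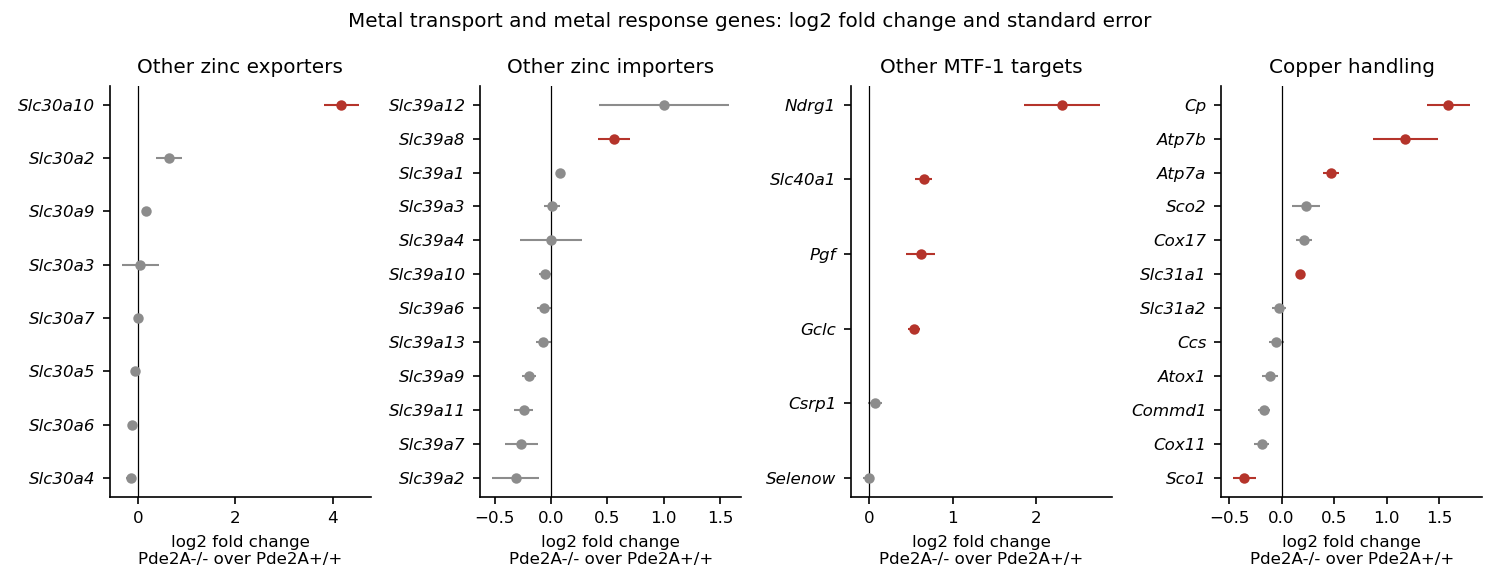
Log2 fold change of Pde2A-/- over Pde2A+/+ hearts with its standard error for the other zinc exporters, the other zinc importers, further MTF-1 targets and copper genes, red where the adjusted p of edgeR was under 0.05 and grey otherwise, with a separate axis in each panel. Slc30a10 at 4.17, Ndrg1 at 2.31, Cp at 1.59 and Atp7b at 1.18 stood apart from genes near 0, and Slc39a5, with 0 counts in every Pde2A-/- heart, was not drawn.

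Metallothionein genes answer to glucocorticoids, and of 9 glucocorticoid targets 1 rose by edgeR, against 8.93% of all genes. Their median log2 fold change was 0.20. Zbtb16, a zinc finger transcription factor gene, had 3.11 CPM in Pde2A-/- replicate A, 3.45 in B, 11.6 in 14, 13.7 in D and 19.7 in 15. Its Pde2A+/+ levels of 1.38, 3.18 and 4.83 CPM (lowest, median, highest) took in replicates A and B, so that the difference rested on 3 hearts. The log2 fold change was 1.68 ± 0.45 (SE; edgeR, adjusted p = 0.0261), and the call ended without any 1 of Pde2A-/- replicates 14, D and 15 or Pde2A+/+ replicates 6 and 8 (adjusted p up to 0.0809). The other 8 did not pass, though 8 of the 9 had a log2 fold change above 0. The classical targets Fkbp5 and Tsc22d3 were at -0.23 and 0.01. Klf9, Per1 and Hif3a were at 0.62, 0.57 and 0.50 (edgeR, adjusted p between 0.0556 and 0.0574). DESeq2 called 4 of the 9, namely Zbtb16, Klf9, Per1 and Hif3a, all of them higher.

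Of 12 acute phase and STAT3 genes 9 rose and 0 fell, against 8.93% and 5.67% of all genes. Their median log2 fold change was 0.90, and 4 of the 12 were called at least 2-fold higher, against 2.21% of all genes. Stat3, the transcription factor gene itself, had 122 CPM in Pde2A-/- replicate A, 147 in B, 195 in 14, 193 in D and 239 in 15, above the Pde2A+/+ hearts at 83.8, 87.0 and 93.2. Its log2 fold change was 1.03 ± 0.13 (SE; edgeR, adjusted p = 0.000296). Lcn2, an iron-scavenging acute phase protein, rose by 3.23 ± 0.48 (SE; edgeR, adjusted p = 0.000857) and was at 1.49 to 3.80 CPM against 0.0261 to 0.422 CPM. Serpina3n, a protease inhibitor, had 1.44 ± 0.509 against 0.607 ± 0.414 CPM and a log2 fold change of 1.24 ± 0.39 (SE; edgeR, adjusted p = 0.0497). Saa3, a serum amyloid A gene, had 0.113 ± 0.0619 against 0.0252 ± 0.0219 CPM and 2.01 ± 0.63 (SE; edgeR, adjusted p = 0.0493). The calls of Serpina3n and of Saa3 each ended without any 1 of 9 hearts, which is all but Pde2A-/- D and Pde2A+/+ 8 for Serpina3n and all but Pde2A-/- B and D for Saa3 (adjusted p up to 0.113 and 0.121). As given above, 9 macrophage markers were also higher in Pde2A-/- hearts, and their part in the acute phase values was not tested.

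The genes most like the metallothioneins were sought by Pearson's correlation in log2 CPM over the 11 hearts, after the mean of each genotype was taken out, among the 14024 genes that averaged 1 CPM or more. Nearest to Mt2 were Mt1 (r = 0.986), Slc41a1 (0.978), Fosl2 (0.974), Cish (0.965) and Pfkfb3 (0.961). Nearest to Mt1 were Fosl2 (r = 0.987), Slc41a1 (0.986), Mt2 (0.986), Vegfa (0.984) and Adora2a (0.980). A correlation over 0.9 was shared by 147 genes with Mt2 and by 294 with Mt1. All of these correlations come from the same 11 libraries and share their normalization. Within the 6 Pde2A+/+ hearts alone, r with Mt2 was 0.938 for Mt1, 0.912 for Slc41a1, 0.822 for Fosl2, 0.786 for Cish and 0.818 for Pfkfb3, and r with Mt1 was 0.894 for Fosl2, 0.901 for Slc41a1, 0.733 for Vegfa and 0.855 for Adora2a.

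Those genes encode a magnesium transporter (Slc41a1), a subunit of the AP-1 transcription factor (Fosl2), a feedback inhibitor of cytokine signalling (Cish), a regulator of glycolysis (Pfkfb3), the vascular growth factor A (Vegfa) and an adenosine receptor (Adora2a). All 6 were called higher in Pde2A-/- hearts by edgeR, as were 8.93% of all genes. Replicate A lay within the Pde2A+/+ range for Vegfa, Fosl2, Cish, Adora2a and Slc41a1, while the groups did not overlap for Pfkfb3. The log2 fold changes were 1.39 ± 0.25 for Vegfa, 1.10 ± 0.20 for Fosl2, 1.08 ± 0.20 for Pfkfb3, 0.83 ± 0.20 for Adora2a, 0.82 ± 0.15 for Cish and 0.38 ± 0.10 for Slc41a1 (SE; edgeR, adjusted p between 0.00405 and 0.0295). The call of Slc41a1 ended without any 1 of Pde2A-/- replicates 14, D and 15 or Pde2A+/+ replicates 7, 11, 6 and 8 (adjusted p up to 0.0878), and that of Adora2a without Pde2A-/- replicate D or 15 (adjusted p up to 0.0563). With the 4 Alb hearts left out, which leaves 4 against 3 hearts, the log2 fold changes were about as large, at 1.39 for Vegfa, 1.10 for Fosl2, 0.996 for Pfkfb3, 0.81 for Adora2a, 0.82 for Cish and 0.37 for Slc41a1. None of the 6 passed there (edgeR, adjusted p between 0.0840 and 0.212).

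The order of the 5 Pde2A-/- hearts by Mt2, with A lowest, then B, 14 and D, and 15 highest, was also that of Mt1, Ndrg1, Zbtb16, Slc31a1, Klf9, Cebpd and the macrophage markers Csf1r and Fcgr3, and it was held by 1020 of the 14024 genes, or 7.27%. The summed macrophage markers had 237 CPM in A, 269 in B, 314 in 14, 299 in D and 315 in 15, and their part in the metallothionein levels was not tested. Other genes ran differently. Slc30a10 and Cp were second highest in replicate B, and the summed erythroid markers were highest in replicate B at 1059 CPM, with 525 in A, 850 in 14, 792 in D and 866 in 15. The summed hepatocyte markers of the Pde2A-/- hearts reached 45.3 CPM in D and lay between 4.79 and 7.52 CPM in the other 4. With the 4 hearts that held at least 1 CPM of Alb left out together, the log2 fold change was 3.52 for Mt2 and 1.92 for Mt1.

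**Figure D5:**
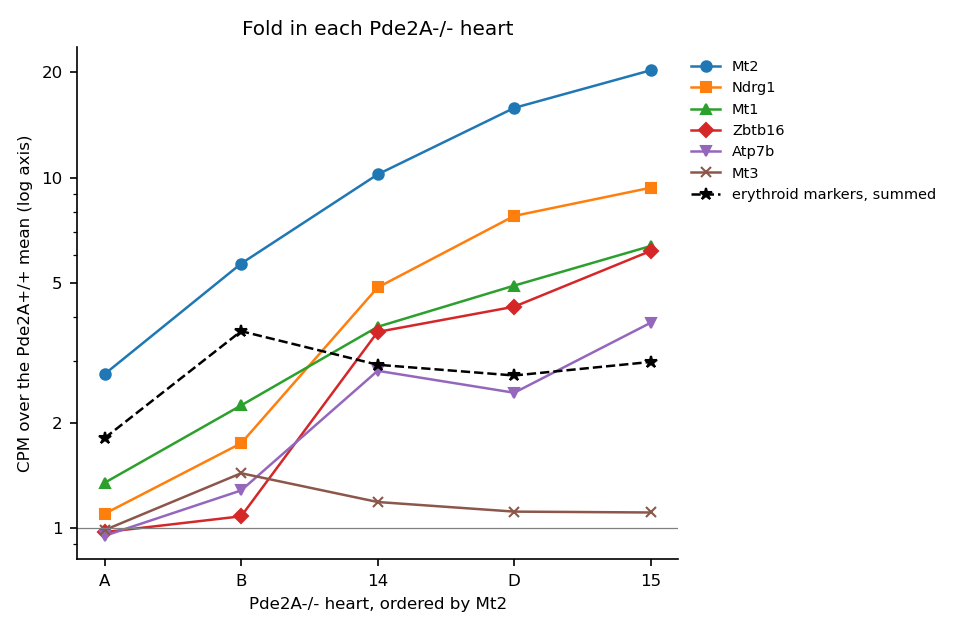
Level in each of the 5 Pde2A-/- hearts divided by the mean of the 6 Pde2A+/+ hearts, on a log axis. The hearts are ordered by Mt2, and the dashed line is the sum of 10 erythroid markers. That sum includes Alas2, whose mean was 124 CPM in Pde2A-/- and 189 CPM in Pde2A+/+ hearts. Mt2 ran from 2.75-fold in replicate A to 20.2-fold in replicate 15 and Mt1 from 1.35-fold to 6.38-fold, while the erythroid sum and Mt3 were highest in replicate B.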

How the data were processed

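RNA of 11 hearts, 5 Pde2A-/- and 6 Pde2A+/+, was sequenced by the authors as single-end reads of stranded mRNA libraries (300 ng, 12 PCR cycles) and mapped to GRCm38 (mm10) with STAR; its version and annotation are not given in the sources used here. The deposited values are whole-number counts per gene, unnormalized, for both strands and for each strand. Of the single strands, the one with more counts was used, and genes with at least 10 counts over all hearts were kept. Counts were compared with edgeR 4.0.16 (TMM, quasi-likelihood test, Benjamini-Hochberg adjustment) in R 4.3.3, with DESeq2 1.42.0 as an alternative; the standard error is the log2 fold change divided by the square root of F. CPM and log2 CPM (prior count 2) use TMM. Of 55487 identifiers 55227 matched GENCODE M21. The fit was tested on simulated counts of 15344 genes for the same 5 against 6 hearts. It called all 200 genes given a log2 change of 2 up or down, and 5 that were given none. The simulation left out genes of low counts and used the same relative spread for every gene and both genotypes. It does not show how the fit does for smaller changes, scarce genes or genes that spread more in Pde2A-/- hearts, as Mt2 did. The principal components used the 500 most variable genes.

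The members and lists were chosen with earlier results of these data known. Named are all members, from each list the genes called at least 2-fold or else the 2 with the largest change at a mean of at least 1 CPM, the 5 genes most like Mt2 and Mt1, and overlapping genes; further called genes of small counts, the flanking genes, and genes given as examples, of the same order of hearts or called by DESeq2 alone were named after their values were seen. Nothing states that hearts of a genotype share or do not share a litter, and counting intervals would cover counting error only. The alternatives tried were DESeq2, its size factors, filterByExpr, a minimum of 1 count, counts that ignore strand, the naming style of the replicates (letter or number) as a covariate, hearts of either naming style alone, each heart left out in turn, and, chosen after seeing the data, the 4 hearts with at least 1 CPM of Alb left out together.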

Additional observations from a re-analysis of the deposited data

Results flagged for a closer look

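Among 34 sets of hearts of 1 genotype examined for 1 gene each, 5 held a heart far from the others. About 1 set of 20 would hold such a heart by chance if the levels were normally distributed. These sets share the same hearts and are not independent, so that the 5 were not tested against that rate. Mt3 was at 11.4 CPM in Pde2A+/+ replicate 7, against 14.2 to 15.8 CPM in the other Pde2A+/+ hearts. Atp7b was at 12.6 CPM in the same heart, against 6.27 to 7.91 CPM. Pde2A+/+ replicate 8 was high for Cp, at 2.93 CPM against 1.58 to 2.04 CPM, and for Serpina3n, at 1.38 CPM against 0.274 to 0.678 CPM. Lcn2 was at 3.80 CPM in Pde2A-/- replicate D, against 1.49 to 1.91 CPM in the other Pde2A-/- hearts.

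The main comparison used the sense strand alone. Mean counts on the strand opposite to a member in Pde2A-/- hearts were above every Pde2A+/+ heart for 3 members. The strand opposite to Mt1 had a mean of 43.4 counts in Pde2A-/- hearts and 6 to 10 in Pde2A+/+ hearts, that opposite to Mt2 had 33.8 against 1 to 7, and that opposite to Slc39a14 had 7.60 against 0 to 6. As a share of the counts on both strands, these were 0.869% in Pde2A-/- and 0.596% in Pde2A+/+ hearts for Mt1, 0.928% and 1.16% for Mt2, and 0.885% and 0.347% for Slc39a14. The share opposite to Mtf1 was 28.8% and 34.2%, where 1110065P20Rik lies.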

How the results depend on the processing

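Mt2 and Mt1 kept their direction under all alternatives, at log2 fold changes of 2.70 to 4.11 for Mt2 and 1.27 to 2.47 for Mt1; the value of 1.27 came from the hearts named by a letter (3 Pde2A-/- and 2 Pde2A+/+). The difference of Mtf1, near 0 throughout, turned to -0.0042 with the naming style as a covariate and to -0.023 among hearts named by a number, and ran from -0.011 to 0.050 with each heart left out, below 0 without Pde2A-/- replicate B or Pde2A+/+ replicate 7. Slc39a14 turned to -0.030 among hearts named by a letter and passed at 0.29 among those named by a number. Counted without regard to strand, Mt2 gave 20.4% of the summed Mt1 and Mt2 counts in Pde2A-/- and 7.96% in Pde2A+/+ hearts, where reads on both Mt2 and Gm45774 go to neither. The number of called genes moved by over 1.5 times as follows. Zinc exporters went from 1 to 2 under DESeq2, filterByExpr, reads of both strands and the naming style covariate. Zinc importers went from 1 to 3 under DESeq2, where both added calls were lower, and to 3 under the covariate, to 2 under filterByExpr, no filter or hearts named by a number, and to 0 among hearts named by a letter or without the Alb hearts. Under DESeq2, copper genes went from 5 to 8 and glucocorticoid genes from 1 to 4. Glucocorticoid genes were also 4 under filterByExpr and among hearts named by a number and 2 with the covariate. Among hearts named by a letter the calls were 1 for MTF-1 targets and 0 for copper, glucocorticoid and acute phase genes. Without the Alb hearts they were 2, 1, 0 and 5. Among the genes that no longer passed there, the log2 fold change was 1.87 for Zbtb16 (1.68 with all hearts) and 2.72 for Saa3 (2.01). It was 1.01 for Atp7b (1.18 with all hearts), 1.06 for Serpina3n (1.24) and 0.44 for Slc39a8 (0.56). With each heart left out the calls ran from 1 to 3 for exporters, 0 to 3 for importers, 3 to 6 for copper and 0 to 4 for glucocorticoid genes. The cause of these moves was not tested, and the subsets also held fewer hearts. Over the other named genes, 388 values stayed on their side of the threshold, 110 no longer passed and 0 turned. No paired analysis was possible because the replicate names of the 2 genotypes share none. Slc30a1, with 12 to 30 counts per heart, limits what a difference could show.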
